A study of Gallus gallus with 4 samples.

Results

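The genes described here are the laminin chains, the nidogen and the integrin subunits of embryonic chicken feathers, taken as every gene whose symbol has the form of a laminin alpha, beta or gamma chain, a numbered or V integrin alpha subunit, an integrin beta subunit or a nidogen. The rule used names alone, no measured value, and found 26 of the 16878 listed genes: 9 laminin chains, 1 nidogen (NID1), 9 integrin alpha subunits and 7 integrin beta subunits. Their levels were read in 4 droplet libraries of white leghorn embryos, with a single library in every group. For 3 of them, feathers were pulled from the skin of the dorsal midline after 12 days of incubation (Hamburger-Hamilton HH38), 13 days (HH39) or 14 days (HH40). The remaining library is of day 12 (HH38) skin from the same site, its feathers left in place, and is called in-skin here. Both day 12 libraries hold whole cells freed with Pronase, and the day 13 and day 14 libraries hold nuclei freed by homogenisation. The labels name no genotype or treatment, and do not say how many embryos went into a library or whether libraries shared embryos. P-values therefore measure only the spread between these libraries, which also differ in age and preparation.

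A laminin is a trimer of an alpha, a beta and a gamma chain, and laminins form the sheet on which a basement membrane is built between an epithelium and its mesenchyme and around blood vessels. Nidogens bind laminin to collagen IV. Integrins are dimers of an alpha and a beta subunit that tie the cytoskeleton to this matrix, and the alpha subunit sets much of the choice of ligand. In skin and its appendages the epithelial basement membrane carries LAMA5 and LAMA3 laminins, held by ITGA6 and ITGA3 integrins, while LAMA4 laminins are known from vessels and mesenchyme. These roles, and those given below, are known mainly from mouse and human. In the feather, SHH (Sonic hedgehog, a secreted signal) marks the epithelium that divides into barb ridges.

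Some other genes of these families, ITGB4, LAMA2, NID2, ITGA1 and ITGA5, had no gene under those symbols and were not analysed here. The integrin of ITGA6 and ITGB4, a part of the hemidesmosome, could thus be followed only through ITGA6.

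Cells were sorted into classes by UMIs (unique molecular identifiers, counts of single transcript molecules). The epithelial gate took barcodes with at least 3 UMIs of GATA3 plus KRT5 and at most 5 of COL1A1 plus COL1A2. The fibroblast gate took at least 5 collagen UMIs and at most 2 of GATA3 plus KRT5, and the endothelial gate at least 3 UMIs of CDH5, KDR and EGFL7 together. The epithelial gate held 3791 barcodes of plucked day 12, 1659 of in-skin day 12, 2747 of day 13 and 3000 of day 14, and the fibroblast gate held 853, 2298, 452 and 367. The in-skin library thus held more barcodes in the fibroblast than in the epithelial gate. Libraries held between 56504070 and 72385294 UMIs. Levels are in CPM, the usual depth-scaled count, with globin and mitochondrial UMIs left out of the total. They were summed per class and library, and their Poisson intervals cover counting error only.

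Summed markers of epithelium other than the gate genes stood between 2356 and 7353 CPM in the epithelial gate, against 521 to 1754 CPM in the fibroblast gate. Fibroblast markers stood between 134 and 573 CPM in the epithelial gate, against 5928 to 11807 CPM in the fibroblast gate. The day 13 fibroblast gate was mixed: it held 1754 CPM of epithelial markers, where the day 13 epithelial gate held 3236 CPM. The fibroblast gate also held smooth muscle and pericyte markers, unequally. Smooth muscle markers summed to 749 CPM in plucked day 12 against 3639 CPM in in-skin day 12. Pericyte markers summed to 424 CPM against 78.5 CPM. Where in the tissue these cells lay was not tested.

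The endothelial gate, with 140, 114, 208 and 191 barcodes in plucked day 12, in-skin day 12, day 13 and day 14, was mixed. Endothelial markers summed to 1211, 1029, 1382 and 4021 CPM in it, against 605, 268, 457 and 478 CPM in the fibroblast gate. Epithelial markers summed to 5082, 1005, 2600 and 1288 CPM in the same barcodes, and fibroblast markers to 4840, 4466, 1136 and 563 CPM. On day 13, 28 barcodes of over 30000 UMIs gave 54.2% of the gate's UMIs, with endothelial markers at 488 CPM, near the 320 CPM of the epithelial gate. Barcodes that passed no other gate, 51, 41, 129 and 143 of them, held endothelial markers at 2654, 1966, 1240 and 5344 CPM, and values from these are given beside the endothelial results. Barcodes of over 30000 UMIs were not left out of this set. On day 12 its plucked and in-skin totals were only 366636 and 289396 UMIs, globin and mitochondrial UMIs left out. Low levels there rest on few UMIs. The day 13 endothelial markers of this set, at 1240 CPM, were below the 1382 CPM of the whole gate. Its epithelial markers stood at 2583 CPM on that day, so it remained mixed.

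Globin made up 15.7% and 13.4% of the UMIs of epithelial nuclei on days 13 and 14, against 0.0999% in epithelial cells of plucked day 12. Nuclei whose UMIs were at least 50% globin, which should hold little matrix RNA, had LAMA4 at 71.0 and 32.8 CPM and NID1 at 113 and 18.5 CPM on days 13 and 14. Epithelial nuclei had LAMA4 at 86.4 and 45.7 CPM and NID1 at 90.8 and 14.6 CPM on the same days. Nuclei with at least 50% globin could also pass a gate, and they held epithelial markers at 1627 and 541 CPM on days 13 and 14. How much of a level in epithelial nuclei came from other cells was not tested. The libraries shared between 20 and 176 barcode sequences pairwise. HINTW, a W-linked gene of females, had 1 UMI in in-skin day 12 and between 40458 and 176270 in the plucked libraries, so the embryos of the day 12 comparison differed also in this respect. Of the members, ITGA2 alone is listed on chromosome Z in RefSeq's gene table.

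**Figure D1:**
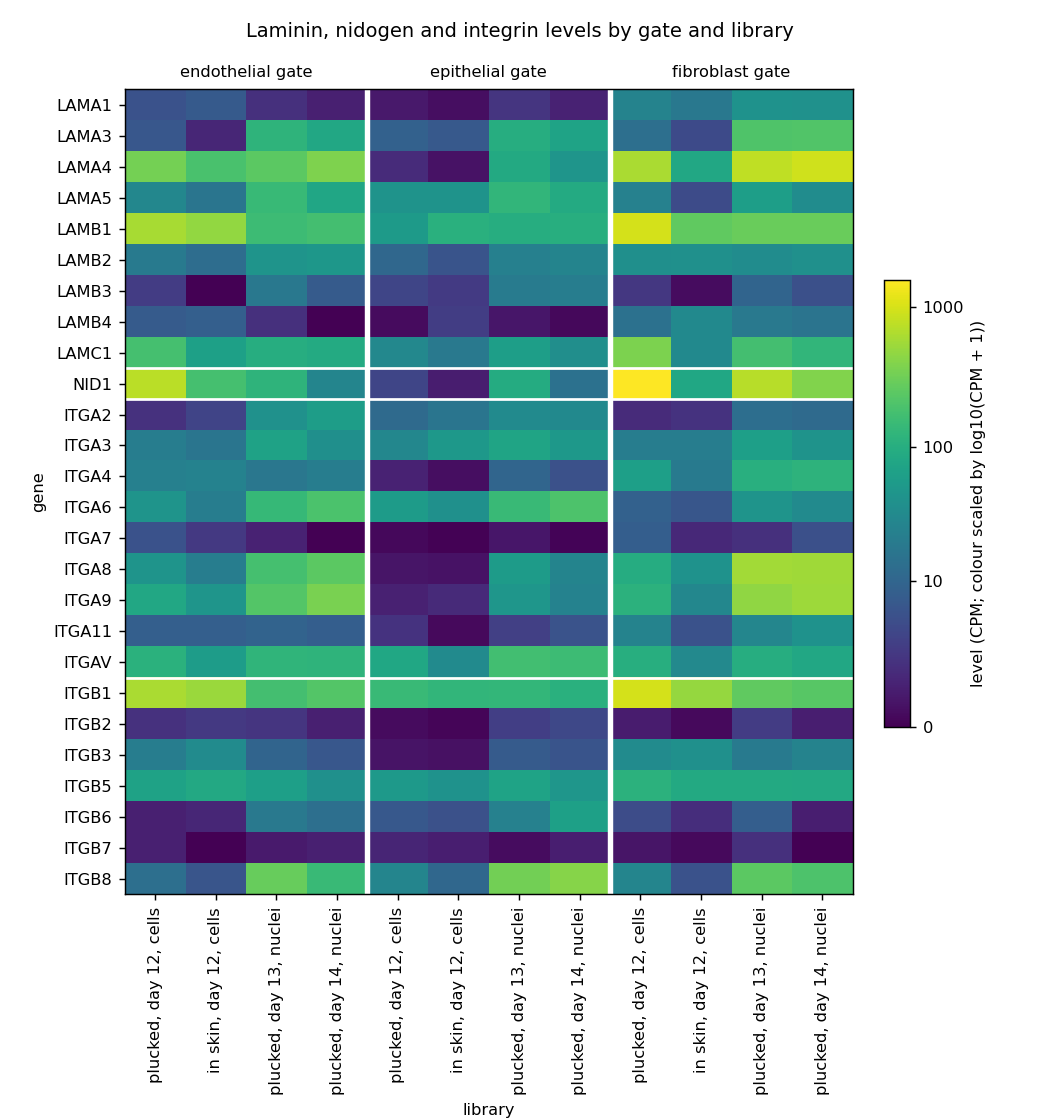
Level of each of the 26 genes (rows; CPM, colour scaled by log10(CPM + 1)) in the endothelial, epithelial and fibroblast gates of the 4 libraries (columns). LAMA4, NID1, ITGA8 and ITGA9 are dark in the epithelial gate of both day 12 libraries and bright in the fibroblast gate, while ITGA6 is brighter in the epithelial than in the fibroblast gate of every library.

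Most members separated epithelium from fibroblasts. Of the 26 genes, 23 had enough UMIs to be tested, and 20 were called in edgeR's quasi-likelihood test with library as a block (Benjamini-Hochberg adjusted p under 0.05 over all genes). Among all 11556 genes tested, 40.5% were called, 23.8% higher and 16.7% lower in epithelium. Higher in the epithelial gate were 7 members: LAMA5, LAMB3, ITGA2, ITGA3, ITGA6, ITGB6 and ITGB8. Lower were 13: LAMA1, LAMA4, LAMB1, LAMB2, LAMB4, LAMC1, NID1, ITGA4, ITGA8, ITGA9, ITGA11, ITGB1 and ITGB3. The median log2 fold change was -1.46 over the 23 members tested and 0.20 over all genes. LAMA3, ITGAV and ITGB5 were not called, and ITGA7, ITGB2 and ITGB7 were too low to be tested.

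The 4 laminin alpha chains, which carry the laminin sites for cell receptors, divided between the gates. LAMA5, the widespread alpha chain of epithelial basement membranes, stood at 42.5 CPM in plucked day 12, 42.6 in in-skin day 12, 125 in day 13 and 90.6 in day 14 of the epithelial gate, against 24.4, 4.35, 61.1 and 35.0 CPM in the fibroblast gate. It was higher in epithelium in 4 of 4 libraries, by 1.81 ± 0.36 on the log2 scale (SE; edgeR adjusted p = 0.0047). The narrowest gap was in plucked day 12.

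LAMA4, the alpha chain of vessel and mesenchymal laminins, stood at 1.50, 0.444, 86.4 and 45.7 CPM in the epithelial gate of plucked day 12, in-skin day 12, day 13 and day 14, against 624, 81.1, 776 and 937 CPM in the fibroblast gate. The log2 fold change was -4.71 ± 1.21 (adjusted p = 0.014), and among fibroblasts the in-skin level stood far below the plucked ones. LAMA1, an alpha chain of early embryonic basement membranes, was scarce in epithelium at 0.648, 0.296, 2.12 and 1.04 CPM, against 26.1, 17.9, 42.2 and 40.0 CPM in fibroblasts (log2 fold change -4.85 ± 0.64, adjusted p = 0.00093). The LAMA1 values of the fibroblast gate did not overlap those of the epithelial gate, and the share of all genes that part in this way is not given here.

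LAMA3, the alpha chain of hemidesmosomal laminin, gave no call. It stood at 8.98, 6.90, 96.8 and 70.8 CPM in the epithelial gate and at 13.6, 4.28, 209 and 213 CPM in the fibroblast gate, in the same order of libraries (log2 fold change -0.45 ± 0.32, adjusted p = 0.28). Fibroblast nuclei thus held more LAMA3 than epithelial nuclei on both later days. Its partner chain LAMB3 was higher in epithelium, at 3.70, 2.46, 20.7 and 21.8 CPM, against 2.26, 0.280, 9.89 and 5.00 CPM in fibroblasts (1.92 ± 0.45, adjusted p = 0.0096). LAMB3 was the lowest in CPM of the members higher in epithelium on day 12, and its day 12 fibroblast levels rest on few UMIs.

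The other beta chains and the gamma chain were lower in the epithelial gate. LAMB1, which joins many laminin trimers, stood at 55.0, 106, 98.7 and 100 CPM in the epithelial gate, against 976, 265, 294 and 293 CPM in the fibroblast gate (-1.80 ± 0.51, adjusted p = 0.020). LAMC1, the gamma chain of most laminins and the one that nidogen binds, stood at 30.6, 18.4, 60.4 and 37.5 CPM, against 369, 32.0, 173 and 128 CPM (-1.70 ± 0.42, adjusted p = 0.012). For both chains the widest gap was in plucked day 12. RNA of all 3 chains of the LAMA5, LAMB1 and LAMC1 trimer was counted in the epithelial gate. How much of it came from other cells was not tested. LAMB2, a beta chain known from nerve-muscle junctions and kidney, stood at 10.7, 5.82, 23.9 and 26.4 CPM, against 37.7, 39.4, 35.1 and 39.2 CPM (-1.32 ± 0.42, adjusted p = 0.031).

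LAMB4, a beta chain whose role is little known, stood at 0.255, 2.81, 0.553 and 0.173 CPM in the epithelial gate, against 14.6, 31.6, 18.9 and 15.8 CPM in the fibroblast gate (-4.76 ± 0.67, adjusted p = 0.0012). Of the 451 LAMB4 UMIs in the in-skin fibroblast gate, 384 came from 58 barcodes with 3 or more. Of all 178 in-skin barcodes with 3 or more LAMB4 UMIs, 112 lay outside the gates because they passed the GATA3 plus KRT5 limit and exceeded the epithelial gate's collagen limit, while plucked day 12, day 13 and day 14 had 4, 2 and 0 such LAMB4-rich barcodes. In-skin barcodes over both limits and outside the endothelial gate, whatever their LAMB4, numbered 231 and held LAMB4 at 327 CPM. Their epithelial markers summed to 6488 CPM, against 6017 CPM in the in-skin epithelial gate, and their fibroblast markers to 5225 CPM. The contrast left these barcodes out, so it does not describe LAMB4 in them. LAMB1 and LAMB4 are neighbouring genes in RefSeq's table, with no protein-coding gene between them. How reads at their ends were assigned was not tested.

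NID1 had the highest level of any member, in plucked day 12 fibroblasts. It stood at 3.70, 0.789, 90.8 and 14.6 CPM in the epithelial gate of plucked day 12, in-skin day 12, day 13 and day 14, against 1567, 79.7, 718 and 387 CPM in the fibroblast gate (-4.59 ± 1.36, adjusted p = 0.025). Its epithelial level of 90.8 CPM on day 13 was below the 113 CPM of majority-globin nuclei.

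The integrin alpha subunits also divided by gate. ITGA6, the laminin receptor of basal epithelium, stood at 56.5, 39.2, 148 and 203 CPM in the epithelial gate, against 8.79, 6.10, 44.9 and 32.5 CPM in the fibroblast gate. It gave the smallest adjusted p of the members, with a log2 fold change of 2.62 ± 0.22 (adjusted p = 0.0004). ITGA2, a collagen receptor that is also found on keratinocytes, stood at 11.7, 16.5, 33.1 and 32.2 CPM, against 1.51, 1.96, 13.5 and 11.7 CPM (2.47 ± 0.48, adjusted p = 0.0043). ITGA6 and ITGA2 each had non-overlapping gates within both preparations, and the share of all genes that part in this way is not given here.

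ITGA3, another laminin receptor of epithelia, differed little between the gates. It stood at 29.3, 49.8, 72.5 and 50.5 CPM in epithelium, against 21.6, 21.9, 62.9 and 42.5 CPM in fibroblasts (0.74 ± 0.22, adjusted p = 0.026). The call was lost under 13 of 21 alternative settings, among them leaving out any 1 of the 4 libraries (adjusted p between 0.05 and 0.25).

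Of the alpha subunits, ITGA4, ITGA8, ITGA9 and ITGA11 were lower in epithelium. ITGA8, whose dimer with ITGB1 binds nephronectin, stood at 0.509, 0.444, 56.6 and 26.5 CPM in the epithelial gate, against 94.7, 42.3, 573 and 558 CPM in the fibroblast gate (-4.72 ± 0.79, adjusted p = 0.0022). ITGA9, a receptor for tenascin C, stood at 0.972, 1.43, 47.6 and 24.9 CPM, against 112, 29.7, 466 and 539 CPM (-4.24 ± 0.64, adjusted p = 0.0015). On day 12 neither exceeded 1.43 CPM in epithelium. In majority-globin nuclei ITGA8 stood at 36.3 and 21.8 CPM and ITGA9 at 19.3 and 11.8 CPM on days 13 and 14.

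ITGA4, a receptor for fibronectin and for VCAM1, stood at 1.02, 0.296, 9.95 and 5.20 CPM in epithelium, against 62.5, 20.0, 102 and 116 CPM in fibroblasts (-4.33 ± 0.75, adjusted p = 0.0026). ITGA11, a collagen receptor of fibroblasts, stood at 1.97, 0.197, 3.04 and 5.64 CPM, against 25.9, 5.47, 28.8 and 41.7 CPM (-3.19 ± 0.54, adjusted p = 0.0024). ITGAV, the shared partner of several beta subunits in receptors for vitronectin, fibronectin and latent TGF-beta, was not called. It stood at 79.2, 33.2, 167 and 154 CPM in epithelium and 99.5, 30.7, 96.2 and 80.8 CPM in fibroblasts (0.60 ± 0.27, adjusted p = 0.1). The ITGAV gates overlapped on day 12 and the epithelial level was the greater in both nuclear libraries.

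Of the beta subunits, ITGB1, the partner of most matrix-binding alpha subunits, stood at 146, 125, 132 and 105 CPM in epithelium, against 986, 491, 263 and 234 CPM in fibroblasts (-1.46 ± 0.34, adjusted p = 0.0095). Its epithelial level was even across the libraries. ITGB3, which pairs with ITGAV, stood at 0.463, 0.394, 7.37 and 5.81 CPM, against 34.2, 39.5, 19.8 and 25.8 CPM (-3.12 ± 1.09, adjusted p = 0.045). This call was lost without plucked day 12 (adjusted p = 0.062) and without day 14 (adjusted p = 0.061).

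The ITGAV partners ITGB6 and ITGB8, both activators of latent TGF-beta, were higher in epithelium. ITGB6, an epithelial subunit, stood at 6.53, 5.18, 24.4 and 65.3 CPM, against 4.52, 1.61, 8.09 and 0.833 CPM (2.13 ± 0.70, adjusted p = 0.037), with the widest gap on day 14. The ITGB6 call was lost without day 13 (2.18, adjusted p = 0.080) and without day 14 (1.34, adjusted p = 0.093). ITGB8 stood at 27.6, 10.8, 329 and 410 CPM, against 27.4, 5.40, 246 and 203 CPM (0.82 ± 0.26, adjusted p = 0.033), and it was even between the gates of plucked day 12. Its call was lost under 13 of 21 alternatives, among them the omission of plucked day 12, in-skin day 12 or day 14 (adjusted p between 0.07 and 0.13). ITGB5, a further ITGAV partner, stood at 53.1, 41.7, 71.5 and 46.4 CPM, against 112, 86.7, 87.2 and 85.0 CPM, and missed the threshold (-0.61 ± 0.23, adjusted p = 0.063).

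Leaving out plucked day 12, in-skin day 12, day 13 or day 14 gave 16, 18, 20 or 14 members called. These counts include members not called with all libraries: ITGA7 was called lower in epithelium without in-skin day 12 (-4.04, adjusted p = 0.0069) and without day 13 (-5.10, adjusted p = 0.0047), and ITGB5 without day 13 (-0.81, adjusted p = 0.048). Besides the losses named above, LAMB2 lost its call without plucked day 12 (adjusted p = 0.082) and without in-skin day 12 (adjusted p = 0.087), and LAMB3 and NID1 lost theirs without day 14 (adjusted p = 0.064 and 0.063). A fit that ignored which library a sum came from called 3 members, in place of 20. Fits of the day 12 cells alone and of the nuclei alone called 18 and 19 members, of which 16 and 17 were among the 20. Counts from these alternative fits are given without each fit's share of all genes called.

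**Figure D2:**
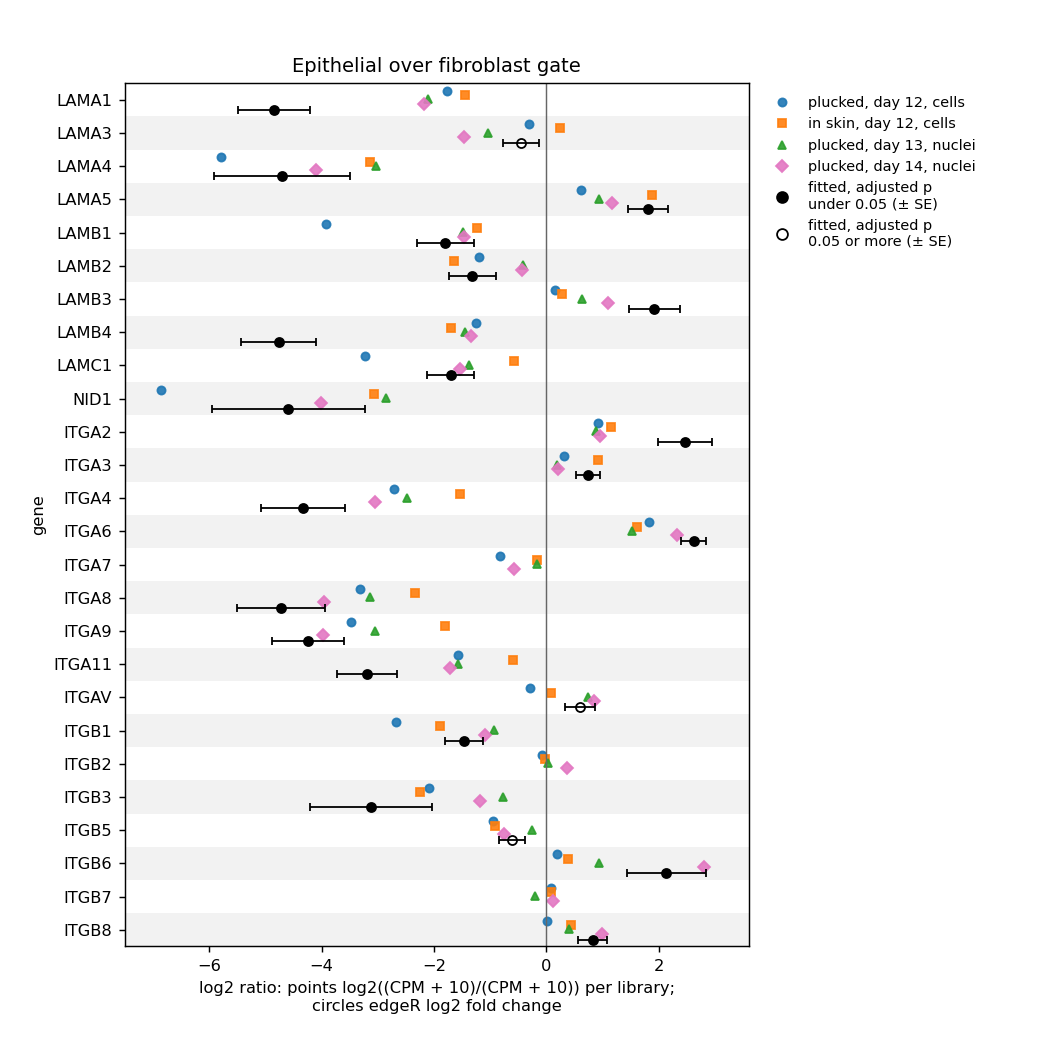
Log2 ratio of the epithelial over the fibroblast gate (x axis) for each gene (y axis): coloured points give each library's ratio with 10 CPM added to both levels, and black or white circles the edgeR log2 fold change with its SE over 4 libraries. ITGA6, at 2.62, is the rightmost fitted value, and LAMA1, at -4.85, the leftmost.

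The epithelial against fibroblast contrast was then compared between preparations. The difference of nuclei minus cells was called for 4 of 24 members tested, against 3.96% of the 12292 genes (edgeR interaction term). It was positive for LAMA4 (4.77, adjusted p = 0.018), NID1 (4.34, adjusted p = 0.049), ITGA8 (3.53, adjusted p = 0.024) and ITGB3 (4.83, adjusted p = 0.013), so the gates were closer in nuclei. All 4 are genes lower in epithelium. ITGA8 stood at 56.6 and 26.5 CPM in epithelial nuclei of days 13 and 14 and at 36.3 and 21.8 CPM in majority-globin nuclei, and ITGB3 at 7.37 and 5.81 CPM and at 5.01 and 3.68 CPM. The part of RNA from other cells in these differences was not tested. Age, preparation and counting software cannot be told apart in this comparison.

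Of 24 listed genes of the wider basement membrane 16 were found and 12 tested, 2 of them higher and 9 lower in epithelium. COL4A1 and COL4A2, the main collagen IV chains, were lower (-4.48 ± 1.16, adjusted p = 0.014, and -4.65 ± 1.01, adjusted p = 0.0069). Higher were FREM2, of the epithelial side of the developing basement membrane (2.69 ± 0.52, adjusted p = 0.0041), and NPNT, which encodes nephronectin (2.17 ± 0.38, adjusted p = 0.0026). NPNT and its receptor subunit ITGA8 were thus on opposite sides: NPNT stood at 55.9, 23.4, 241 and 339 CPM in epithelium, against 12.3, 10.9, 70.1 and 39.2 CPM in fibroblasts.

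Of 4 tested genes of hemidesmosomes and other laminin receptors, COL17A1 (1.72 ± 0.49, adjusted p = 0.022) and DAG1, which encodes dystroglycan (0.53 ± 0.16, adjusted p = 0.028), were higher in epithelium. DST, the gene of the hemidesmosomal plakin and of its other isoforms, was lower (-1.56 ± 0.25, adjusted p = 0.0018). Of 13 tested integrin ligands other than laminins, 6 were lower and 0 higher, among them FN1 (fibronectin, -4.81 ± 0.78, adjusted p = 0.002) and TNC (tenascin C, -5.47 ± 0.41, adjusted p = 0.0004). Of 17 tested genes of the cytoplasmic adhesion complex, 11 were lower and 1, FERMT1, the kindlin of epithelia, was higher (1.44 ± 0.47, adjusted p = 0.037). The median log2 fold changes of these lists were -2.87, -0.21, -2.21 and -1.26, against 0.20 over all genes.

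The endothelial counts depended on the fit. Against fibroblasts, 2 of 23 tested members were called, with 5.22% of all genes called, 3.59% higher and 1.63% lower. The count was 12 in nuclei alone, 1 in day 12 cells alone and 0 to 4 with 1 library left out, given without each fit's share of all genes. ITGA6, a laminin receptor also known from vessels, stood at 44.0, 21.5, 138 and 193 CPM in the endothelial gate of plucked day 12, in-skin day 12, day 13 and day 14, against 8.79, 6.10, 44.9 and 32.5 CPM in the fibroblast gate. It was higher in 4 of 4 libraries (log2 fold change 2.09 ± 0.23, adjusted p = 0.0059). In barcodes that passed the endothelial gate alone it stood at 92.7, 48.4, 125 and 209 CPM, above the fibroblast level in each library. Epithelial markers in these barcodes summed to 1227, 504, 2583 and 995 CPM, against 562, 521, 1754 and 696 CPM in the fibroblast gate. Their part in the ITGA6 result was not tested.

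LAMA1 was lower in the endothelial gate, at 5.49, 7.17, 1.74 and 0.908 CPM, against 26.1, 17.9, 42.2 and 40.0 CPM in the fibroblast gate (-3.13 ± 0.70, adjusted p = 0.036). In barcodes of the endothelial gate alone LAMA1 stood at 5.46, 3.46, 1.92 and 1.64 CPM. Both calls were lost without day 14 (ITGA6 1.91, adjusted p = 0.093, and LAMA1 -2.67, adjusted p = 0.22), and the LAMA1 call also without day 13 (-2.62, adjusted p = 0.11). With barcodes of more than 1 gate left out, 7 members were called. These were ITGA6 (2.43) and ITGA2 (2.32) higher, and LAMA1 (-4.19), LAMB4 (-3.14), NID1 (-3.53), ITGA4 (-2.66) and ITGA11 (-1.95) lower. That fit had no in-skin endothelial sum, since fewer than 50 such barcodes remained. Its share of all genes called is not given here, so its count is no result about the members.

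Against epithelium, 2 of 23 members were called, with 7.03% of all genes called: 5.11% of all genes were higher in the endothelial gate and 1.91% lower. DESeq2 called 13, day 12 cells alone gave 12, omitting barcodes of over 30000 UMIs gave 8, and leaving out 1 library gave 0 to 7. Such counts again come without each fit's share of all genes. ITGA8 stood at 44.9, 21.5, 182 and 247 CPM in the endothelial gate, against 0.509, 0.444, 56.6 and 26.5 CPM in the epithelial gate (3.48 ± 0.77, adjusted p = 0.033). ITGA9, which is known from lymphatic endothelium, stood at 82.4, 45.4, 217 and 359 CPM, against 0.972, 1.43, 47.6 and 24.9 CPM (3.90 ± 0.65, adjusted p = 0.016). The gates did not overlap within either preparation for ITGA8 or for ITGA9, and the share of all genes that part in this way is not given here.

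In barcodes of the endothelial gate alone, ITGA9 stood at 106, 38.0, 209 and 485 CPM and ITGA8 at 35.5, 10.4, 163 and 337 CPM. Fibroblast markers in these barcodes summed to 1176, 639, 1271 and 579 CPM, against 134, 333, 573 and 257 CPM in the epithelial gate, and their part in the result was not tested. Both calls were lost without day 14 (adjusted p = 0.14 for each).

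LAMA4, the vessel laminin chain, missed the threshold against epithelium. It stood at 338, 192, 246 and 383 CPM in the endothelial gate, against 1.50, 0.444, 86.4 and 45.7 CPM (4.35 ± 1.27, adjusted p = 0.065), and was called with barcodes of over 30000 UMIs left out (4.45, adjusted p = 0.043). Against fibroblasts it was below in plucked day 12, day 13 and day 14 and above in in-skin day 12 (-0.36 ± 1.04, adjusted p = 0.91). In barcodes of the endothelial gate alone LAMA4 stood at 153, 117, 242 and 489 CPM. The median over the members tested was -0.36 against fibroblasts and 1.14 against epithelium, where all genes had 0.01 and -0.21.

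Within the epithelial gate, barcodes with 3 or more SHH UMIs were set against those with 0. There were 364, 295, 328 and 123 SHH barcodes in plucked day 12, in-skin day 12, day 13 and day 14, against 3096, 1231, 1894 and 2575 without an SHH UMI. Barcodes with 1 or 2 SHH UMIs were left out. Median UMIs per barcode were 10884.5, 14277, 6143 and 4456 in the SHH barcodes, against 10976.5, 12428, 3153 and 3425, so that in nuclei the SHH barcodes were also the deeper ones.

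The laminin chains LAMA5 and LAMC1 were called in this contrast. LAMA5 stood at 182, 87.8, 197 and 205 CPM in SHH barcodes of plucked day 12, in-skin day 12, day 13 and day 14, against 24.3, 26.9, 98.4 and 80.4 CPM in barcodes without SHH. The sets did not overlap within either preparation, and LAMA5 was higher in 4 of 4 libraries (1.62 ± 0.32, edgeR adjusted p = 0.031). LAMC1 stood at 151, 43.7, 93.6 and 70.6 CPM, against 16.8, 10.7, 48.1 and 33.6 CPM (1.73 ± 0.40, adjusted p = 0.046). It too was higher in 4 of 4 libraries, without overlap within either preparation. The share of all genes whose SHH sets part in this way is not given here. LAMA5 and LAMC1 were the 2 calls among 21 members tested, with 7.49% of all 10966 genes called, 2.75% higher and 4.73% lower. The median log2 fold change was 0.52 over the members tested and -0.08 over all genes, and LAMA1, LAMB4, ITGA7, ITGB2 and ITGB7 were too low to be tested.

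Both calls were lost without in-skin day 12 (LAMA5 1.60, adjusted p = 0.066, and LAMC1 1.62, adjusted p = 0.097) and without day 14 (1.82, adjusted p = 0.091, and 2.02, adjusted p = 0.095). The LAMC1 call was also lost with a limit of 2 SHH UMIs (1.60, adjusted p = 0.071) and of 5 (1.73, adjusted p = 0.050), where LAMA5 was still called (1.52, adjusted p = 0.047, and 1.61, adjusted p = 0.030). With each barcode thinned to 1000 UMIs 5 members were called: LAMA5 (1.65), LAMC1 (2.12), LAMB3 (1.52), ITGA6 (1.40) and ITGB1 (0.92). The share of all genes called with thinning is not given here, so this count is no result about the members.

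LAMB1, the beta chain that joins LAMA5 and LAMC1, stood at 175, 173, 124 and 89.3 CPM in SHH barcodes, against 40.0, 81.5, 89.8 and 103 CPM. The order was the same in 3 libraries and turned round on day 14, and the difference was not called (0.79 ± 0.38, adjusted p = 0.24). On day 14 the Poisson intervals of LAMB1 overlapped, at 68.5 to 115 CPM against 96.2 to 109 CPM. LAMA3 stood at 43.6, 12.9, 119 and 54.8 CPM, against 5.06, 4.65, 82.2 and 76.5 CPM (1.03 ± 0.57, adjusted p = 0.29). Day 14 was again the other way round, with overlapping intervals of 38.7 to 75.2 CPM and 70.9 to 82.3 CPM. LAMB3 stood at 21.4, 5.34, 34.2 and 38.9 CPM, against 1.83, 1.87, 16.7 and 19.1 CPM, above in 4 of 4 libraries without a call (1.65 ± 0.47, adjusted p = 0.081).

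The laminin receptor subunits gave no call. ITGA6 stood at 233, 88.0, 207 and 231 CPM in SHH barcodes, against 36.0, 24.2, 116 and 196 CPM (1.30 ± 0.43, adjusted p = 0.11). ITGA3 stood at 57.9, 76.4, 89.7 and 50.4 CPM, against 26.1, 41.6, 64.1 and 50.2 CPM (0.56 ± 0.22, adjusted p = 0.16). ITGB1 stood at 316, 194, 153 and 187 CPM, against 124, 102, 127 and 101 CPM (0.74 ± 0.20, adjusted p = 0.065). For ITGA6 and ITGB1 the SHH barcodes were above in 4 of 4 libraries, and for ITGA3 the day 14 levels were nearly equal.

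ITGAV leaned the other way, at 58.4, 29.3, 131 and 127 CPM in SHH barcodes, against 79.9, 34.7, 192 and 160 CPM (-0.52 ± 0.13, adjusted p = 0.053). Its partners differed by preparation. ITGB6 stood at 19.6, 8.97, 16.7 and 21.6 CPM, against 5.14, 3.89, 25.9 and 72.3 CPM, so that SHH barcodes were above on day 12 and below in nuclei (0.15 ± 0.61, adjusted p = 0.92). ITGB5 stood at 32.7, 17.2, 76.9 and 54.8 CPM, against 55.4, 49.8, 67.9 and 46.7 CPM, below on day 12 and slightly above in nuclei (-0.60 ± 0.26, adjusted p = 0.19). ITGB8 stood at 66.8, 19.2, 387 and 450 CPM, against 22.9, 8.54, 300 and 415 CPM (0.65 ± 0.29, adjusted p = 0.20).

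The difference of nuclei minus cells in the SHH contrast was called for 8 of 21 members, against 5.29% of all genes. It was negative for LAMA3 (-2.49, adjusted p = 0.023), LAMA5 (-1.36, 0.042), LAMB1 (-1.62, 0.031), LAMC1 (-1.84, 0.015), ITGA6 (-1.94, 0.0087), ITGB6 (-2.91, 0.0072) and ITGB8 (-1.34, 0.012), and positive for ITGB5 (1.14, 0.046). In a fit of the day 12 cells alone 11 members were called: LAMA3 (2.35), LAMA5 (2.27), LAMB1 (1.56), LAMB3 (2.68), LAMC1 (2.60), ITGA3 (0.96), ITGA6 (2.25), ITGB1 (1.09), ITGB6 (1.56) and ITGB8 (1.33) higher and ITGB5 (-1.18) lower. In a fit of the nuclei alone LAMA5 (1.12, adjusted p = 2.4e-06) and LAMC1 (0.97, adjusted p = 0.00032) were among 10 members called, with LAMA4 (0.92), LAMB3 (0.99), ITGA6 (0.51), ITGA8 (0.80), ITGA9 (1.16) and ITGB1 (0.52) higher and ITGAV (-0.49) and ITGB6 (-1.12) lower. Markers of other cells differed between the nuclear sets as well. In day 13 SHH nuclei endothelial markers summed to 427 CPM and fibroblast markers to 682 CPM, against 289 and 540 CPM in those without SHH. On day 14 they summed to 238 and 316 CPM, against 270 and 246 CPM. Of the 328 day 13 SHH barcodes 296 passed no other gate, and of the 1894 without SHH 1865. Their part in the nuclear calls, LAMA4, ITGA8 and ITGA9 among them, was not tested. Each of these fits used 2 libraries, and both were added after the data had been seen. The share of all genes called in each is not given here, so their counts are not read as results about the members.

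Around the laminins, 2 of 11 tested basement membrane genes were higher in SHH barcodes. AGRN, the gene of the laminin-binding proteoglycan agrin, stood at 204, 152, 143 and 124 CPM, against 18.1, 31.6, 60.9 and 54.3 CPM (1.94 ± 0.42, adjusted p = 0.038). SMOC1, a secreted calcium-binding protein of basement membranes, stood at 83.7, 87.8, 297 and 305 CPM, against 2.28, 3.82, 77.6 and 60.6 CPM (3.27 ± 0.62, adjusted p = 0.028). In the adhesion complex 2 of 16 were higher, FERMT1 (1.35 ± 0.31, adjusted p = 0.046) and PTK2, which encodes focal adhesion kinase (1.57 ± 0.31, adjusted p = 0.030). FN1 alone of 13 other integrin ligands was called, and was lower (-1.55 ± 0.32, adjusted p = 0.034). COL17A1 and DST were not called (adjusted p = 0.18 and 0.15).

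**Figure D3:**
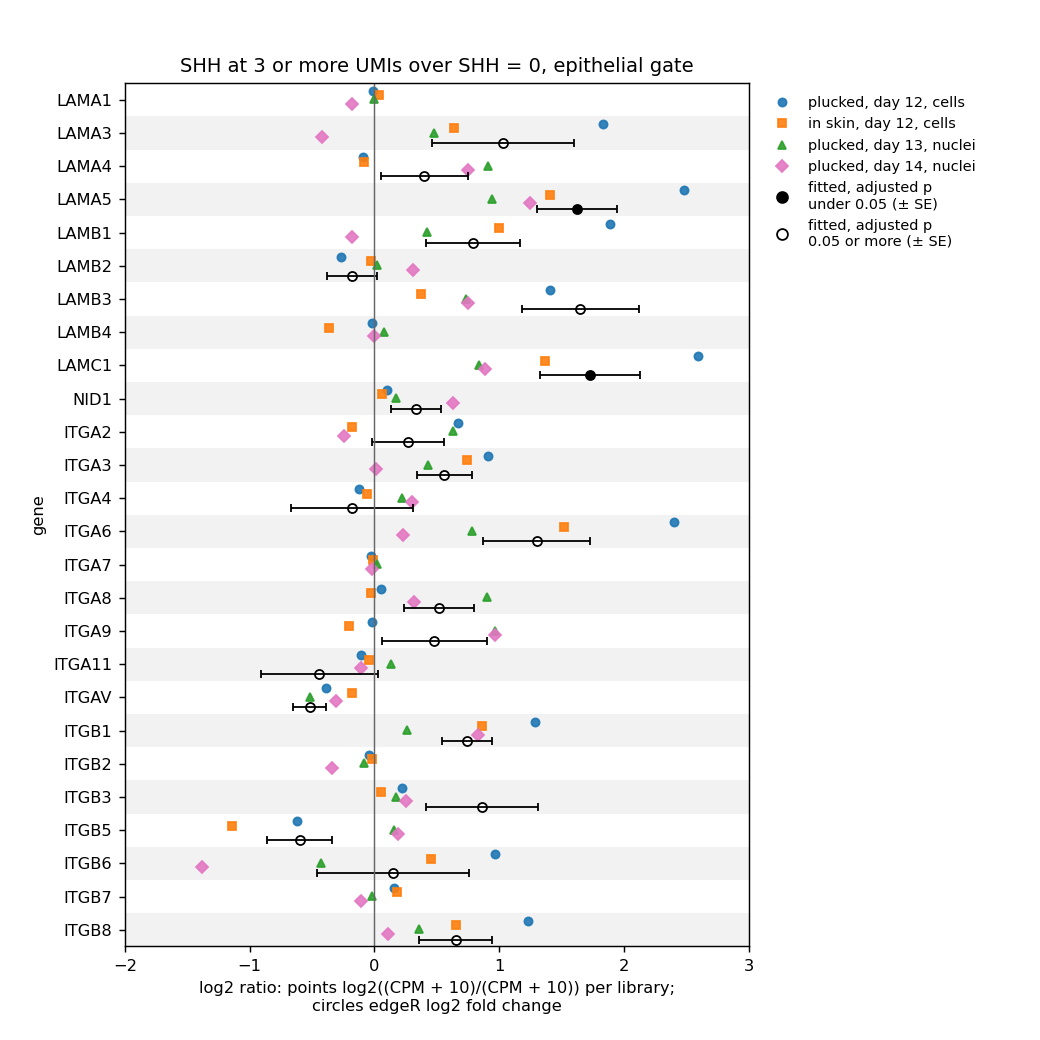
Log2 ratio of epithelial barcodes with 3 or more SHH UMIs over those with SHH at 0 (x axis) for each gene (y axis), with points per library (10 CPM added to both levels) and circles for the edgeR log2 fold change with its SE. LAMA5 (1.62) and LAMC1 (1.73) are the filled circles, and for ITGA6, LAMA5, LAMB1, LAMC1 and ITGB8 the day 12 points lie to the right of the nuclear points.

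Plucked feathers and feathers in skin were compared on day 12, with 1 library each and therefore no test. Ratios were taken with 10 CPM added to both levels, and a gene was counted as past 2-fold when it also reached 20 CPM in either library. In the fibroblast gate 11 of the 18 members at that level were 2-fold or more higher in plucked feathers and 0 lower, where 17.4% of all genes were higher and 2.50% lower, 19.9% in all. The median log2 ratio was 1.23 over these members and 0.38 over all genes. Scaling by TMM put the median over all genes at -0.19 and left 6 members past 2-fold, of which 5 were shared. Ratios relative to the median gene are therefore given too. The share of all genes past 2-fold under TMM scaling is not given here.

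NID1 and the laminin chains LAMC1, LAMA4 and LAMB1 had the largest ratios. NID1 stood at 1567 CPM in plucked fibroblasts, against 79.7 CPM in in-skin ones, which is 4.14 on the log2 scale and 3.76 once the median gene is subtracted. LAMC1 stood at 369 and 32.0 CPM (3.17, relative 2.80), LAMA4 at 624 and 81.1 CPM (2.80, relative 2.42) and LAMB1 at 976 and 265 CPM (1.85, relative 1.47). With ITGA9 (112 and 29.7 CPM, 1.61), these are the 5 that also passed under TMM scaling. COL4A1, the partner of NID1 in the matrix, stood at 2008 CPM in plucked and 266 CPM in in-skin fibroblasts.

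The other 6 had smaller ratios: ITGAV 1.43, ITGB8 1.28, ITGA4 1.27, LAMA5 1.26, ITGA11 1.21 and ITGA8 1.00. ITGB1, at 986 CPM against 491 CPM, was just under the limit at 0.99. LAMB4 was the member with the lowest ratio, at 14.6 CPM in plucked day 12, against 31.6 CPM in in-skin day 12 (-0.76), and under TMM scaling, at -1.18, it was past 2-fold lower.

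Smooth muscle and pericyte markers differed between these gates, as given above. With smooth muscle and pericyte barcodes left out of the fibroblast gate, 11 members were again past 2-fold, 9 of them shared. The share of all genes past 2-fold in that setting is not given here. NID1 then had a log2 ratio of 4.19, LAMC1 3.27, LAMA4 3.08, LAMB1 2.09, ITGA9 1.98 and ITGA8 1.83, while LAMA5 stood at 0.44 and ITGA4 at 0.76. In bulk sums of this kind, a different mix of fibroblasts and less RNA per cell cannot be told apart. The in-skin gate may also hold fibroblasts of skin outside the feathers, which were not separated from those within them.

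In the epithelial gate of the same libraries 1 of 9 members at 20 CPM was past 2-fold, ITGAV, at 79.2 CPM in plucked day 12, against 33.2 CPM in in-skin day 12 (1.05, and 0.75 under TMM scaling), where 14.9% of all genes were past 2-fold, 12.9% higher and 2.04% lower. LAMA5 was level there, at 42.5 and 42.6 CPM, and LAMB1 stood at 55.0 CPM against 106 CPM (-0.84). In the endothelial gate 2 of 14 were past 2-fold, with 16.6% of all genes (14.4% higher, 2.26% lower): NID1 at 740 CPM against 182 CPM (1.97) and LAMC1 at 178 CPM against 65.7 CPM (1.31). Of these endothelial barcodes 69 of plucked day 12 and 71 of in-skin day 12 also passed the fibroblast gate. In barcodes of the endothelial gate alone NID1 stood at 166 CPM in plucked day 12, against 10.4 CPM in in-skin day 12, and LAMC1 at 136 CPM, against 34.6 CPM. The in-skin levels come from 41 barcodes and 289396 UMIs, and so rest on few UMIs. Fibroblast markers in these sets summed to 1176 CPM in plucked and 639 CPM in in-skin day 12, and their part was not tested.

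**Figure D4:**
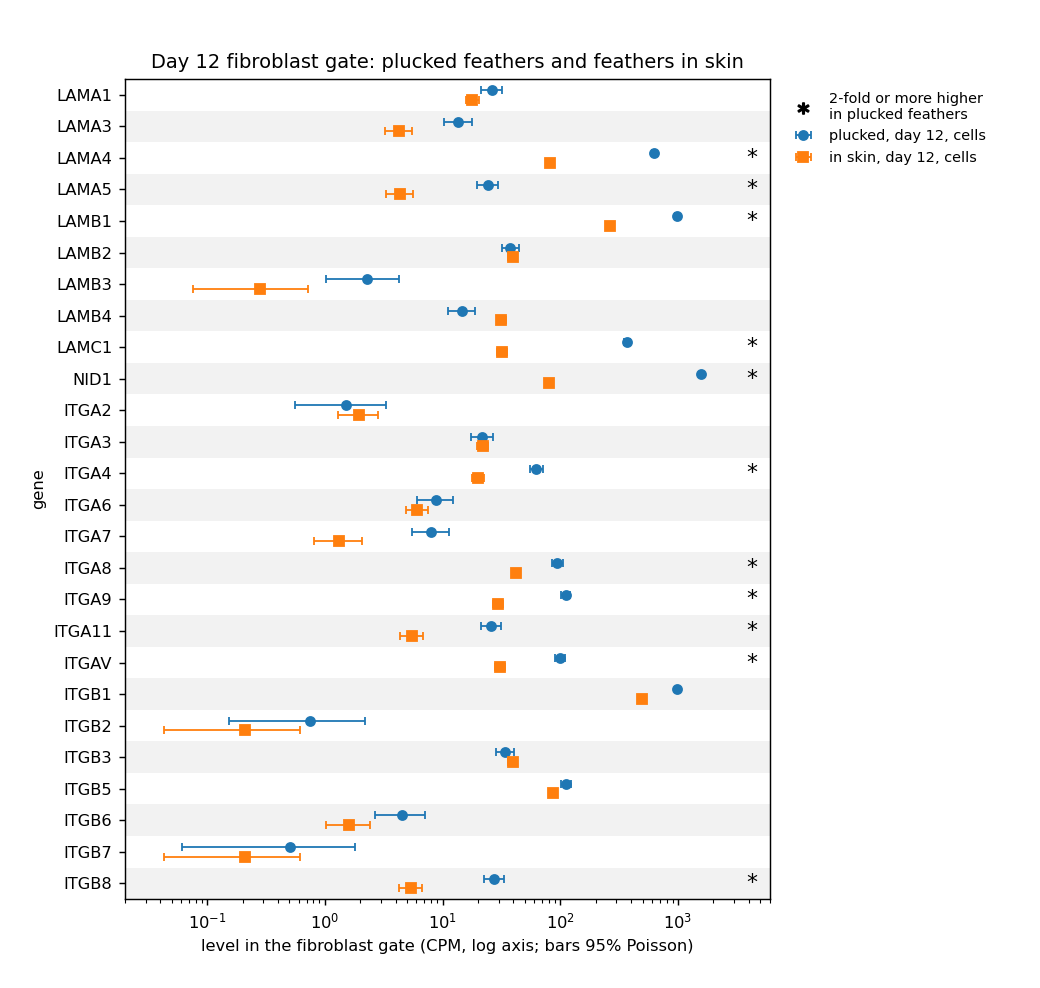
Level of each gene (CPM, log axis, with 95% Poisson intervals) in the day 12 fibroblast gate of plucked feathers (circles) and feathers in skin (squares). Stars mark the 11 genes 2-fold or more higher in plucked feathers, and NID1 has the widest gap, at 1567 and 79.7 CPM.

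Between day 14 and day 13, both plucked and both nuclei, most members at 20 CPM were within 2-fold in each gate, with NID1 and ITGB6 the exceptions. In the fibroblast gate 0 of 19 members at 20 CPM were past 2-fold, with 4.89% of all genes past it, 1.90% higher and 2.99% lower. NID1 came nearest, at 387 CPM on day 14 and 718 CPM on day 13 (-0.88). LAMA4 stood at 937 CPM on day 14 against 776 CPM on day 13 (0.27), and LAMB1 at 293 CPM against 294 CPM.

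In the epithelial gate 2 of 18 members were past 2-fold between these days, with 4.84% of all genes, 2.35% higher and 2.48% lower. ITGB6 stood at 65.3 CPM on day 14 and 24.4 CPM on day 13 (1.13, relative to the median gene 1.32). NID1 stood at 14.6 CPM on day 14 and 90.8 CPM on day 13 (-2.04), and in majority-globin nuclei it stood at 18.5 CPM against 113 CPM. Majority-globin nuclei were not kept apart from the epithelial gate, and held epithelial markers at 541 and 1627 CPM on days 14 and 13. In the endothelial gate NID1 alone was past 2-fold, at 27.2 CPM on day 14 and 119 CPM on day 13 (-1.79), with 10.9% of all genes past it, 4.81% higher and 6.12% lower. In barcodes of the endothelial gate alone NID1 stood at 24.7 CPM on day 14 and 133 CPM on day 13.

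The members left are the low ones. ITGA7, a laminin receptor of muscle, reached at most 8.04 CPM in any gate, in plucked day 12 fibroblasts. ITGB2 and ITGB7, beta subunits of leukocyte integrins, reached at most 3.90 and 1.80 CPM. All 3 were too low to be tested with all libraries in the class comparisons, and ITGA7 entered the comparison of nuclei with cells without a call (1.96, adjusted p = 0.43).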

How the data were processed

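Droplet single-cell RNA was measured in 4 libraries, 1 per group, grouped by their labels. The deposited values are the authors' whole-number counts of UMIs per gene and barcode, with no normalization. Per the file headers they were made with Cell Ranger 3.1.0 for both day 12 libraries and Cell Ranger 7.0.0 for day 13 and day 14, while the submitters' processing notes name Cell Ranger 7.0.0 and the GRCg6a genome. Whether introns were counted is not given in the sources used here, and intron counting would raise nuclear levels of long genes. Of the listed genes, 4436 have no symbol.

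Barcodes were kept from 500 UMIs and 300 genes upward, if the 13 mitochondrial genes gave no more than 10% of UMIs: 6208 of plucked day 12, 5411 of in-skin day 12, 19457 of day 13 and 19435 of day 14. Median UMIs per kept barcode were 8537, 6797, 2299 and 2150. No doublet caller was used, and Scrublet in scanpy 1.11.5, which marked 153, 73, 2860 and 5390 barcodes, served only as an alternative. CPM left out the mitochondrial and 7 globin genes. A barcode that passed more than 1 gate counted in each.

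UMIs were summed per class and library and tested with edgeR 4.0.16 in R 4.3.3 (TMM scaling, edgeR's low-count filter, library as a block, quasi-likelihood test, Benjamini-Hochberg adjustment over all genes, threshold 0.05). The 3 classes shared 1 fit, and the SHH sums another. The scripts were first tested on simulated counts. Library pairs were compared by log2 ratios after adding 10 CPM, without a test, and 95% Poisson intervals cover counting error only. Alternatives included DESeq2 1.42.0, other scalings, filters and gates, thinning to 1000 UMIs and leaving out each library. The fits by preparation, the test of the difference between preparations, and the alternatives on deep, smooth muscle, pericyte and endothelial barcodes were chosen after seeing the data.

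The members and lists were chosen with earlier results of these data known. Values in every library are given for members called in a test or past 2-fold in a library ratio and for partners in the main laminin trimers and hemidesmosomal integrin. RefSeq's GRCg7b gene table matched 25 of the 26 members by symbol and was used only for chromosome and neighbours. No sequences were used here.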

Additional observations from a re-analysis of the deposited data

Results flagged for a closer look

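The difference between nuclei and cells in the epithelial over fibroblast contrast, on the log2 scale, passed its test for LAMA4 (4.77), NID1 (4.34), ITGA8 (3.53) and ITGB3 (4.83). In the contrast of SHH barcodes with those without SHH it passed for LAMA3 (-2.49), LAMA5 (-1.36), LAMB1 (-1.62), LAMC1 (-1.84), ITGA6 (-1.94), ITGB5 (1.14), ITGB6 (-2.91) and ITGB8 (-1.34). Preparation, age and counting software cannot be told apart in these differences.

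Some barcodes outside the 3 gates, or overlapping them by other genes, held members at 2-fold or more above every gate of their library. Barcodes with at least 2 UMIs of PTPRC, the leukocyte gene of CD45, numbered 9 in plucked day 12 and 12 in in-skin day 12. Their totals were only 86269 and 76222 UMIs, globin and mitochondrial UMIs left out, so levels in these barcodes rest on few UMIs. ITGB2, the shared beta subunit of leukocyte integrins, stood in them at 92.7 CPM in plucked day 12 and 118 CPM in in-skin day 12, where no gate exceeded 1.83 and 2.39 CPM. ITGA4, its fellow leukocyte receptor subunit, stood at 267 CPM in those of plucked day 12, against a highest gate of 62.5 CPM. In those of in-skin day 12, ITGAV stood at 197 CPM, ITGB5 at 236 CPM and LAMA3 at 52.5 CPM, against highest gates of 57.4, 86.7 and 6.90 CPM.

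Barcodes with 5 or more UMIs of the smooth muscle genes ACTG2 and MYH11 held ITGA8 at 199 CPM in plucked day 12, 142 CPM in in-skin day 12 and 1502 CPM in day 14, against highest gates of 94.7, 42.3 and 558 CPM. In those of plucked day 12, LAMA5 stood at 99.6 CPM, ITGA4 at 177 CPM and ITGA7, the muscle laminin receptor, at 29.5 CPM, against highest gates of 42.5, 62.5 and 8.04 CPM. ITGB3 stood at 94.1 CPM in those of in-skin day 12, against 39.5 CPM. Such barcodes numbered 34 in plucked day 12, with only 271086 UMIs, globin and mitochondrial UMIs left out. The plucked day 12 levels in them thus rest on few UMIs.

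In-skin barcodes that passed the GATA3 plus KRT5 limit but had over 5 collagen UMIs, 231 in number, held LAMB4 at 327 CPM, against a highest gate of 31.6 CPM. They also held LAMA1 at 45.2 CPM, LAMA3 at 37.0 CPM, ITGA2 at 37.0 CPM, ITGA3 at 104 CPM and ITGA6 at 89.9 CPM, against highest gates of 17.9, 6.90, 16.5, 49.8 and 39.2 CPM. Their epithelial markers summed to 6488 CPM and their fibroblast markers to 5225 CPM. Scrublet marked 37 of the 231.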

How the results depend on the processing

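No paired analysis was possible between groups because the labels give no replicate numbers and each group is 1 library, while classes were compared with their library as a block. No called member or ratio past 2-fold changed direction under an alternative. ITGB6, not called in the SHH contrast, was called higher in day 12 cells alone (1.56) and lower in nuclei alone (-1.12), and small plucked over in-skin ratios turned under TMM scaling, such as fibroblast ITGB5 (0.34, then -0.22) and epithelial ITGB1 (0.21, then -0.12). In all, 631 single-gene values stayed on their side of the threshold or within their error, while 77 lost a call and 44 ratios moved further. For epithelium over fibroblasts, 20 members were called, 3 without the library block, and 14 to 20 with 1 library left out. For the endothelial over the fibroblast gate (2 called), counts were 0 without the block, 7 in a fit of the 2 classes alone, 5 with a mitochondrial limit of 5%, 7 without barcodes of 2 gates, 6 with stricter gates, 4 with all UMIs in the totals, 1 in day 12 cells only, 12 in nuclei only, and 0 to 4 with 1 library left out. For the endothelial over the epithelial gate (2 called), DESeq2 called 13, library totals without TMM 4, no low-count filter 4, no block 0, the 2 classes alone 0, Scrublet-marked barcodes left out 5, stricter gates 5, all UMIs 6, thinning 7, endothelial barcodes left out of other classes 4, barcodes over 30000 UMIs left out 8, day 12 cells only 12, and 1 library left out 0 to 7. For SHH barcodes (2 called), DESeq2 called 6, no low-count filter 4, no block 0, thinning 5, a limit of 2 or 5 SHH UMIs 1 each, day 12 cells 11, nuclei 10, and 1 library left out 0 to 3. For plucked over in-skin feathers, the epithelial count of 1 became 2 with a mitochondrial limit of 5%, 3 with thinning and 2 with 1 CPM added. The fibroblast count of 11 became 6 under TMM scaling, and the endothelial count of 2 became 5 with thinning. For day 14 over day 13, the epithelial count of 2 became 5 without Scrublet-marked barcodes, and the fibroblast count of 0 became 1 with stricter gates and 1 without smooth muscle and pericyte barcodes. The endothelial count of 1 became 4 without barcodes of 2 gates, 2 without Scrublet-marked barcodes and 2 with thinning. The cause of these changes was not tested. Counts under alternatives are given without the share of all genes called or past 2-fold in each, so a changed count is no result about the members. With in-skin endothelial barcodes under 50, that sum was left out under the mitochondrial, 2-gate and stricter settings. Members under 20 CPM, and endothelial sums of 114 to 208 barcodes, limit what these libraries can show.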
